A study of Homo sapiens with 6 samples.

Results

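The oxygen-sensing pathway was described through 10 named genes: the hypoxia-inducible factor genes HIF1A and EPAS1, the prolyl hydroxylase genes EGLN1 and EGLN3, and the target genes ADM, VEGFA, PDK1, CA9, ANKRD37 and NDRG1. Every probe set whose only gene symbol in the platform annotation was one of these was taken, which gave 21 of the 54675 probe sets. They covered 9 of the 10 genes, among 19775 genes with a probe set of their own on the array. No probe set carried CA9 as its only symbol, so CA9 was not analysed here. RNA came from IMR32, an established human neuroblastoma cell line with an amplified MYCN gene. The arrays fell into 3 from IMR32 cells given 118 µM teriflunomide and 3 from IMR32 cells given 0.1% DMSO, both for 24 h. Teriflunomide blocks DHODH, the step of pyrimidine synthesis that takes place in mitochondria. The labels call the arrays biological replicates but do not say whether they came from separate cultures. The p-values therefore reflect only how far these arrays differ, and that scatter may be technical. The labels do not say whether the teriflunomide wells also held DMSO, and all values come from 1 cell line.

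Hypoxia-inducible factors are pairs of an oxygen-regulated alpha subunit, encoded by HIF1A or EPAS1, and a stable partner, ARNT or ARNT2. When oxygen is plentiful, prolyl hydroxylases of the EGLN family modify the alpha subunits, the VHL ubiquitin ligase binds them and the proteasome degrades them. When oxygen or hydroxylase activity is short, the pair binds hypoxia response elements and raises genes of blood vessel growth, glycolysis and pH control. This regulation acts largely on protein stability, and the arrays measured mRNA alone.

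The promoters of 5 members are printed because their genes ended on different sides of the test while each holds the core of the hypoxia response element. The 300-base windows run from 250 bases before to 50 bases after the annotated transcription start, from RefSeq on GRCh38.p14, written 5′ to 3′ on the gene's strand. Capitals mark ACGTG or GCGTG on either strand. The windows are ADM (chr11:10304823-10305122, + strand), PDK1 (chr2:172555840-172556139, + strand), EGLN1 (chr1:231422238-231422537, - strand), EPAS1 (chr2:46297157-46297456, + strand) and ANKRD37 (chr4:185396591-185396890, + strand).
ADM: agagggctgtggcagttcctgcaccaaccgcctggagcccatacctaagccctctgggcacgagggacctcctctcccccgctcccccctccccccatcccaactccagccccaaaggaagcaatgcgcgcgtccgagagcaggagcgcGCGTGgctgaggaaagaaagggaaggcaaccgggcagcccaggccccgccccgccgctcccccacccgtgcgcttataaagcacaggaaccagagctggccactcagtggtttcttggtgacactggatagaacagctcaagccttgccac
PDK1: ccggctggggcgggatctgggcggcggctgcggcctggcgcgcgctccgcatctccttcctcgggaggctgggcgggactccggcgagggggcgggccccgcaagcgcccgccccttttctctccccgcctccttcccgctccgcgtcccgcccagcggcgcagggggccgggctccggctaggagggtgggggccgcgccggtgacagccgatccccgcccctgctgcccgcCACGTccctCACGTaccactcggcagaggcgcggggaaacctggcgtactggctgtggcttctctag
EGLN1: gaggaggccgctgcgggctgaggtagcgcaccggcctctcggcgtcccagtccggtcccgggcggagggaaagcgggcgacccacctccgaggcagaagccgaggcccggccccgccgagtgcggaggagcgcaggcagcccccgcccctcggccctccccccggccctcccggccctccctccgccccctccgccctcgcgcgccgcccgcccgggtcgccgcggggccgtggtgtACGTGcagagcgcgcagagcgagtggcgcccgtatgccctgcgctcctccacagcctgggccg
EPAS1: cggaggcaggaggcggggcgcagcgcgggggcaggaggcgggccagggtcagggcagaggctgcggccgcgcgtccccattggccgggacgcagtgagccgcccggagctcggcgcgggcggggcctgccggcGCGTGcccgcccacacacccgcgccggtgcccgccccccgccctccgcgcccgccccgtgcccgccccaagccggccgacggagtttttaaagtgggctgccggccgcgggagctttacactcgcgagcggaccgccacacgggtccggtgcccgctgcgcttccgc
ANKRD37: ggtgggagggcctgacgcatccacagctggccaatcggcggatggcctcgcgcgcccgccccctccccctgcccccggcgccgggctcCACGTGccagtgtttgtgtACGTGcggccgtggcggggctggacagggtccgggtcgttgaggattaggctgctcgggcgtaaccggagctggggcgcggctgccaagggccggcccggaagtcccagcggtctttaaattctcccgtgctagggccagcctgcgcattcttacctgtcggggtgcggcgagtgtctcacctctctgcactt

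The table of promoters held 10 windows for 8 of the members, with a pair of start sites each for HIF1A and PDK1, and matched by gene symbol. Either motif was present at 1 or more starts for 7 of these 8 genes, the exception being EGLN3. Sequence outside the windows was not searched, so a gene without a match may hold one elsewhere. Over all 27305 genes of that table, 52.4% held either motif. The stricter ACGTG was present in 4 of the 8, namely EGLN1, PDK1, CA9 and ANKRD37, against 24.9% of all genes. ANKRD37 had 3 matches, of which a pair overlap in the palindrome CACGTG, and PDK1 had 2 at the start printed and 0 at the other. A match is a run of letters and was not tested as a binding site. As the values below show, PDK1 fell, EPAS1 rose and ANKRD37 did not pass, each with a match in its window. VEGFA and NDRG1, which also rose, had no window, so EPAS1 is the only member that rose with a window.

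Teriflunomide arrays differed from DMSO arrays in both directions across the members. The values are GCRMA log2 intensities, so 1 unit is a doubling of signal, and the lowest value on every array was 2.18. Of the 9 genes tested with limma, EPAS1, VEGFA and NDRG1 rose, ADM, PDK1 and EGLN1 fell, and HIF1A, EGLN3 and ANKRD37 did not pass an adjusted p of 0.05. That is 6 of 9 called, where 58.6% of all 11998 genes tested were called, 29.7% higher and 28.9% lower. The share called is thus close to the background. At least 2-fold, EPAS1 and VEGFA rose and ADM and PDK1 fell, 4 of the 9, against 9.77% of all genes, 5.24% higher and 4.53% lower. For 8 of the 9 members no teriflunomide value fell among the DMSO values, as held for 67.0% of all genes. All 9 genes had at least 1 probe set past the filter on dim values. Of their 21 probe sets, 16 passed it, 6 of them rose and 6 fell, where 48.8% of the 27290 probe sets tested were called, 23.7% higher and 25.2% lower. The plot of intensities by array shows all 16.

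**Figure D1:**
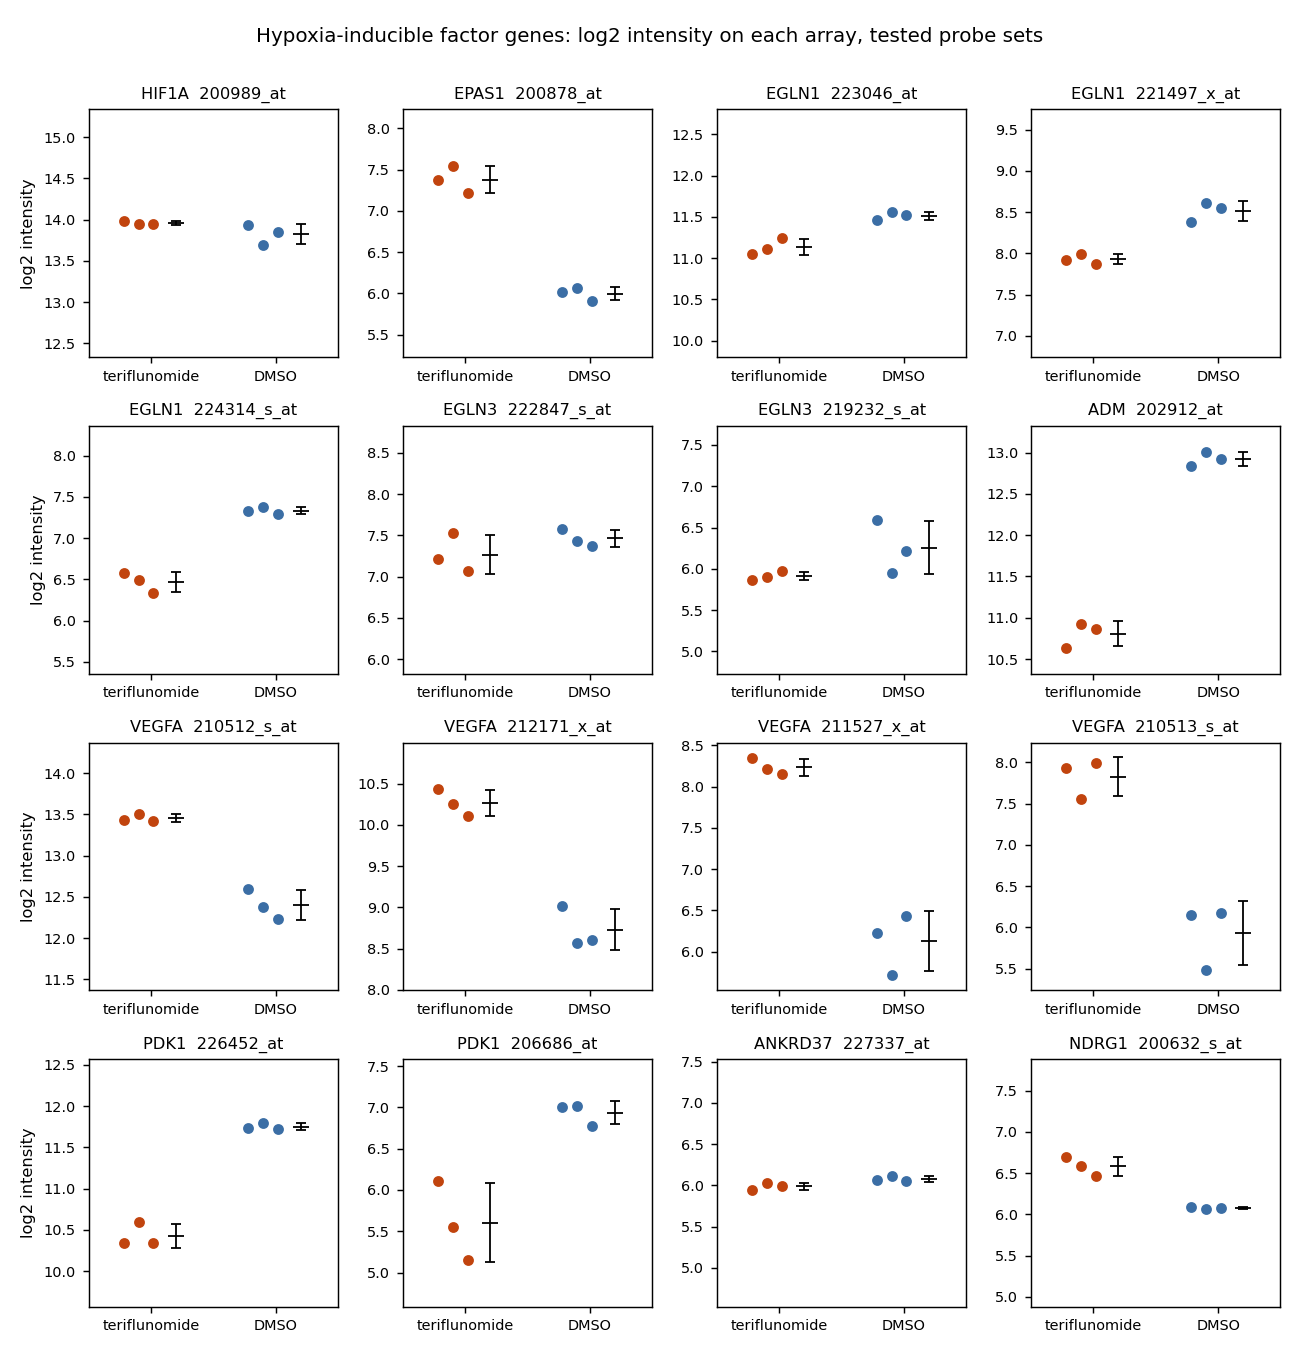
Log2 intensity (y axis, 3 log2 units tall in every panel) of the 16 tested probe sets on the 3 teriflunomide arrays (red, left) and the 3 DMSO arrays (blue, right), with the mean and SD beside each group in black. The ADM and PDK1 points lie lower with teriflunomide, the EPAS1 and VEGFA points higher, and the EGLN3 points overlap.

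EPAS1, which encodes HIF-2 alpha, the alpha subunit prominent in sympathoadrenal and endothelial cells, rose while HIF1A did not pass. EPAS1 read 7.38, 7.55 and 7.22 on the teriflunomide arrays, against 6.02, 6.07 and 5.91 on the DMSO arrays. Every teriflunomide array lay more than 1 log2 unit above every DMSO array. The log2 fold change was 1.38 (SE 0.10, 95% confidence interval 1.14 to 1.62, limma adjusted p = 0.000176), or 2.61-fold. The other pair of EPAS1 probe sets lay at the lowest value on all 6 arrays, so the EPAS1 result rests on 1 probe set.

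HIF1A, the widely expressed alpha subunit, read 13.98, 13.94 and 13.95 with teriflunomide, against 13.93, 13.69 and 13.85 with DMSO. The groups did not overlap, but the gap between them was 0.01. The log2 fold change was 0.13 (SE 0.07, 95% confidence interval -0.04 to 0.30, limma adjusted p = 0.143). The interval therefore excludes a HIF1A mRNA change as large as the one of EPAS1. The fold change of EPAS1 exceeded that of HIF1A by 1.25 log2 units, and the per-array differences of the 2 genes did not overlap between the groups (exact permutation p = 0.1, the smallest that 3 arrays against 3 can give).

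Of the oxygen-sensing hydroxylases, EGLN1 fell and EGLN3 did not pass. EGLN1 encodes PHD2, the main hydroxylase setting HIF levels in oxygenated cells. Its brightest probe set read 11.05, 11.11 and 11.25 with teriflunomide, against 11.46, 11.56 and 11.52 with DMSO. All teriflunomide values lay below all DMSO values, and EGLN1 changed by -0.38 log2 units (SE 0.06, limma adjusted p = 0.00371). A further pair of EGLN1 probe sets gave larger falls. The x-suffixed one, a class whose probes can match unrelated transcripts, averaged 7.93 ± 0.06 with teriflunomide and 8.51 ± 0.12 with DMSO (SD, n = 3 each), a change of -0.58. The s-suffixed one, a class whose probes can match several transcripts, averaged 6.47 ± 0.12 with teriflunomide and 7.33 ± 0.05 with DMSO (SD, n = 3 each), a change of -0.86. The remaining EGLN1 probe set stayed near the lowest value, at 2.19 on every array. As the mean of its tested probe sets the EGLN1 change was -0.61, so its direction held and its size depended on the probe set.

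EGLN3 encodes PHD3, a hydroxylase whose gene is itself a strong HIF target in many cells. Its brighter probe set read 7.21, 7.52 and 7.07 with teriflunomide, against 7.58, 7.43 and 7.37 with DMSO, and the groups overlapped. EGLN3 changed by -0.19 log2 units (SE 0.13, 95% confidence interval -0.52 to 0.13, limma adjusted p = 0.248). The other probe set also overlapped, at -0.34. Without teriflunomide replicate 2, the highest of its group, EGLN3 passed at -0.32 (limma adjusted p = 0.0364). The fold changes of EGLN1 and EGLN3 differed by -0.18 (exact permutation p = 0.5).

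The secreted members moved apart. ADM encodes adrenomedullin, a vasodilator peptide, and fell most of the members. It read 10.63, 10.92 and 10.86 with teriflunomide, against 12.84, 13.01 and 12.92 with DMSO. The spread within each group was under 0.3, and the gap between the groups was 1.92. ADM thus changed by -2.12 log2 units (SE 0.09, limma adjusted p = 4.90e-05), a 4.34-fold lower signal. Of all genes tested, 0.492% had a lower log2 fold change than ADM.

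VEGFA encodes the main growth factor of blood vessel formation, and all 4 of its probe sets rose. The brightest read 13.43, 13.51 and 13.42 with teriflunomide, against 12.59, 12.38 and 12.23 with DMSO. No values overlapped, and the log2 fold change was 1.05 (SE 0.10, 95% confidence interval 0.81 to 1.29, limma adjusted p = 0.000426), or 2.07-fold. The 3 dimmer probe sets rose by 1.54, 1.89 and 2.11, each with an adjusted p of at most 0.00179 over all probe sets tested. On the one that rose most, the values were 8.35, 8.21 and 8.15 with teriflunomide, against 6.23, 5.72 and 6.43 with DMSO. The DMSO arrays spread more widely than the teriflunomide arrays on all 4, and none of the 24 array values lay near the floor. As the mean of its probe sets VEGFA rose by 1.65. All 4 carry an s or x suffix, so the spread of their changes was not assigned to a transcript of VEGFA here.

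PDK1, as named here, is pyruvate dehydrogenase kinase 1, which inactivates the pyruvate dehydrogenase complex and so holds pyruvate out of the mitochondrial citric acid cycle. Its brightest probe set read 10.34, 10.60 and 10.35 with teriflunomide, against 11.73, 11.80 and 11.72 with DMSO. The lowest DMSO array stood 1.13 above the highest teriflunomide array. PDK1 thus changed by -1.32 log2 units (SE 0.08, limma adjusted p = 0.000117), a 2.50-fold lower signal. The next probe set gave -1.33, with a wider spread of 6.11, 5.56 and 5.15 with teriflunomide, against 7.01, 7.02 and 6.77 with DMSO. The third was below the filter, at 2.23 to 2.31 with teriflunomide and 2.57 to 3.15 with DMSO.

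NDRG1 and ANKRD37 changed least among the target genes measured. NDRG1, named for its repression by N-Myc and also induced by low oxygen and other stresses, read 6.69, 6.59 and 6.46 with teriflunomide, against 6.08, 6.07 and 6.08 with DMSO. The DMSO values were almost equal and all lay below the teriflunomide values. NDRG1 thus changed by 0.50 log2 units (SE 0.06, limma adjusted p = 0.00132), or 1.42-fold. MYCN itself averaged 14.69 with teriflunomide and 15.11 with DMSO, a change of -0.43. Its dimmer tested probe sets stood at -0.46 and -0.03 and did not pass. A link between the MYCN and NDRG1 changes was not tested. ANKRD37, an ankyrin repeat protein gene used as a marker of HIF activity, read 5.94, 6.03 and 5.99 with teriflunomide, against 6.06, 6.11 and 6.06 with DMSO. Its log2 fold change was -0.09 (SE 0.04, 95% confidence interval -0.18 to 0.00, limma adjusted p = 0.0789), and its other probe set lay at the lowest value on all arrays.

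**Figure D2:**
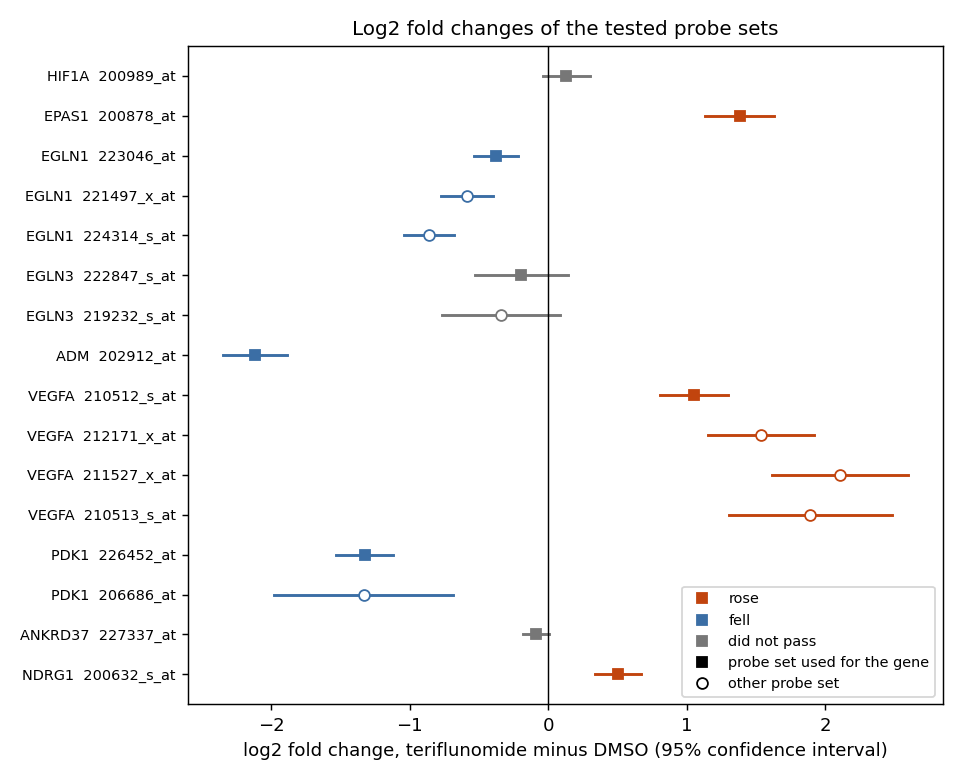
Log2 fold change, teriflunomide minus DMSO (x axis, with the 95% confidence interval from limma as a line), of each tested probe set (rows); filled squares are the probe sets that stand for the gene and open circles the others, red where the probe set rose, blue where it fell and grey where it did not pass. The tested probe sets of VEGFA run from 1.05 to 2.11 and those of EGLN1 from -0.38 to -0.86, and no gene has tested probe sets on both sides of 0.

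The genes that build and control HIF besides the members were split between rises, falls and no call. Of 21 such genes 20 were tested, 7 rose, 3 fell and 10 did not pass, which is 50% called against 58.6% of all genes, and on the brightest probe set of each gene none changed at least 2-fold. P4HTM, a transmembrane prolyl hydroxylase, rose by 0.65 (SE 0.04). SIAH1, a ubiquitin ligase that targets hydroxylases for degradation, rose by 0.53, though a dim SIAH1 probe set stood at -0.23 and did not pass. SENP1, a SUMO protease, rose by 0.46, a call lost with the mean of its probe sets, where it stood at 0.10. RBX1, a subunit of the VHL ligase, fell by 0.39, and ELOC, another, by 0.19, a call lost when any of the arrays but teriflunomide replicate 3 was left out.

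The partner subunits of the alpha proteins went opposite ways. ARNT, the general partner, read 10.49, 10.69 and 10.55 with teriflunomide, against 9.94, 10.30 and 9.93 with DMSO, a rise of 0.52 (SE 0.12, limma adjusted p = 0.0128). Its second brightest probe set read 9.71, 9.60 and 9.70 with teriflunomide, against 7.90, 7.85 and 7.47 with DMSO, a rise of 1.93. A dimmer ARNT probe set with an x suffix rose by 2.48, and with its probe sets averaged ARNT rose by 1.00, so the size of its rise depended on the probe set. ARNT2, the partner abundant in neural cells, read 8.87, 8.96 and 8.91 with teriflunomide, against 9.22, 9.32 and 9.24 with DMSO, and fell by 0.35 (SE 0.04, limma adjusted p = 0.00141). VHL stood at 0.22 and HIF3A at 0.08, and neither passed. HIF3A repeated exactly 6.53 on DMSO replicates 2 and 3, so its level is uncertain. EGLN2, the remaining hydroxylase of the family, lay near the lowest value, at 2.19 with teriflunomide and 2.18 with DMSO.

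Targets of HIF in glycolysis and glycogen metabolism split. Of 25 such genes 23 were tested, 5 rose, 9 fell and 9 did not pass. The median change over the list was -0.02 on the log2 scale, beside 0.0015 for all genes tested. The share called was 60.9%, close to that of all genes. The falls were PKM (pyruvate kinase) at -0.76, SLC2A1 (the glucose transporter GLUT1) at -0.60, ENO1 (enolase) at -0.54 and PGAM1 (phosphoglycerate mutase) at -0.43, with 5 smaller ones. The dimmer PKM probe set stood at -0.53 and did not pass. SLC2A1 read 7.61, 7.71 and 7.65 with teriflunomide, against 8.37, 8.20 and 8.20 with DMSO. ENO2, the neuronal enolase, rose by 1.21 (SE 0.06) and was the 1 gene of the list to change at least 2-fold. It was followed by ALDOC (0.46), HK1 (0.45) and PGM1 (0.32).

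Targets outside glycolysis moved in both directions. Of 41 such genes 33 were tested, 18 rose, 8 fell and 7 did not pass. The median change over the list was 0.22 on the log2 scale, against 0.0015 for all genes tested. The share called was 78.8%, with 54.5% higher and 24.2% lower, against 58.6%, 29.7% and 28.9% of all genes. The count of rises was 15 to 17 when any array was left out. It was 15 with no filter, with values under log2 5 raised to 5 and with poly-A spike centring. This list was chosen with earlier results of these data known. STC2, a secreted glycoprotein, read 7.03, 7.48 and 7.45 with teriflunomide, against 2.21, 2.23 and 2.30 with DMSO, next to the floor. Its rise of 5.08 became 2.32 with values under log2 5 raised to 5. The other STC2 probe set, also dim with DMSO, rose by 2.23. DDIT4, an inhibitor of mTORC1 signalling, read 13.80, 13.84 and 13.79 with teriflunomide, against 10.17, 10.28 and 10.37 with DMSO, a rise of 3.54 (SE 0.06, limma adjusted p = 6.97e-06). STC2, DDIT4 and VEGFA are also known targets of the stress factor ATF4, whose part in these rises was not tested. IGFBP3, an insulin-like growth factor binding protein, rose by 1.46 and CCNG2, an atypical cyclin, by 1.39, although the dimmest tested CCNG2 probe set did not pass at 0.10.

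Of the falls in that list, 3 were at least 2-fold on the brightest probe set, those of TMEM45A, CXCR4 and STC1. TMEM45A, a transmembrane protein gene, read 5.84, 5.59 and 5.51 with teriflunomide, against 7.88, 8.29 and 8.01 with DMSO, a change of -2.41 (SE 0.14). CXCR4, the receptor of the chemokine CXCL12, read 7.97, 8.26 and 8.32 with teriflunomide, against 9.87, 9.83 and 9.68 with DMSO, a change of -1.61 (SE 0.11). Its other tested probe sets gave -1.68 and -2.11. STC1, the relative of STC2, fell by 1.23, a change of -1.11 with values under log2 5 raised to 5. Its other tested probe set also fell, at -0.68, short of 2-fold. RAB20, a small GTPase of endosomes, fell by 0.97. Thus the 2 stanniocalcin genes, both listed as HIF targets, moved in opposite directions.

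**Figure D3:**
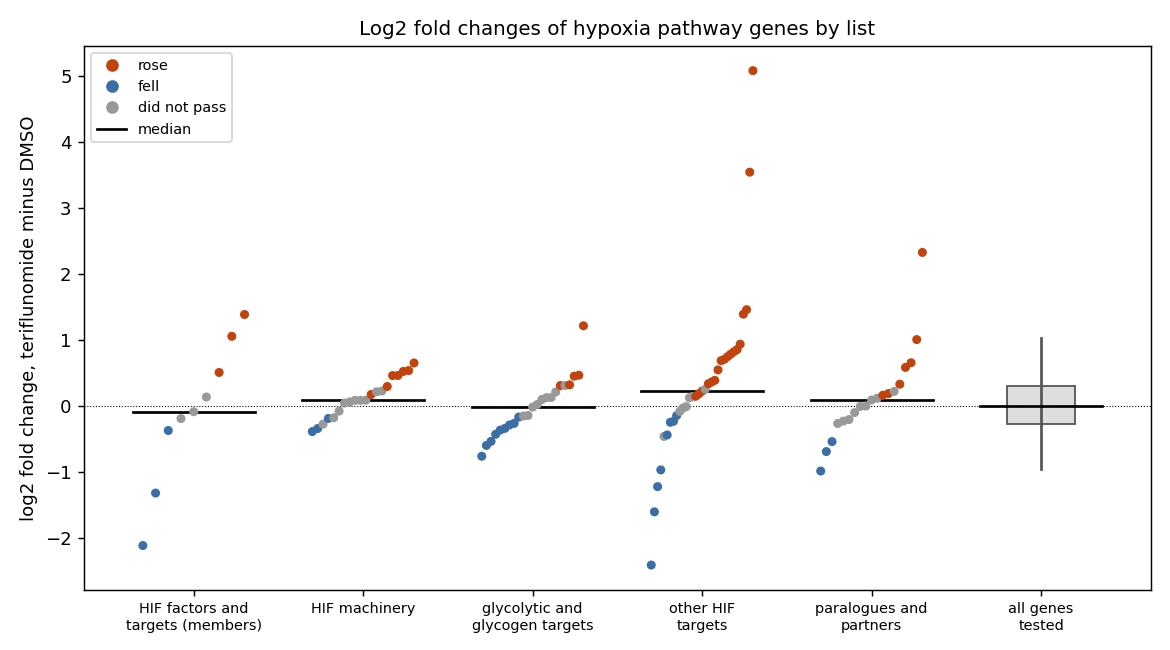
Log2 fold change, teriflunomide minus DMSO (y axis), of every tested gene of the members and of 4 lists of related genes, each point a gene (red rose, blue fell, grey did not pass) and each black line a median; the box on the right spans the 25th to 75th and the line the 5th to 95th percentile of all 11998 genes, -0.95 to 1.03. On the brightest probe set of each gene the machinery lies between -0.39 and 0.65, and the other HIF targets run from -2.41 to 5.08.

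**Figure D4:**
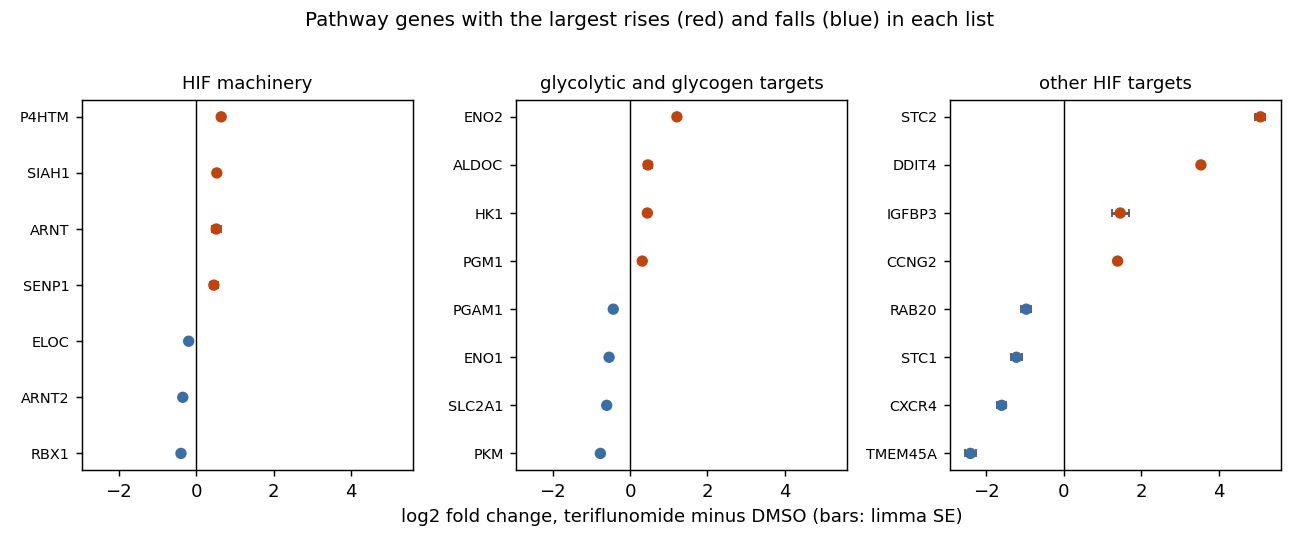
Log2 fold change, teriflunomide minus DMSO (x axis, bars limma's SE), of up to 4 genes with the largest rises (red) and 4 with the largest falls (blue) past the threshold in each of 3 lists. DDIT4 and STC2 rose by 3.54 and 5.08, and TMEM45A and CXCR4 fell by 2.41 and 1.61.

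Paralogues of the members gave changes of differing size and direction. Among relatives of PDK1, PDK3 stood at -0.01 on its brightest probe set, while its dimmest tested one rose by 0.91. PDK2 stood at -0.69 on its brighter probe set but 0.35 on the other, both past the threshold over probe sets, so the direction of PDK2 is not settled. PDK4 lay at the lowest value in both groups. VEGFB stood at -0.23 and PGF at -0.10, neither past the threshold, beside the rise of VEGFA. That PGF probe set repeated exactly 9.82 on arrays of both groups, and another stood at 0.25 and did not pass. Whether PGF was above its background signal is thus not known. ADM2 was dim, at 3.46 to 3.48 on all 6 arrays, so it gives no comparison with the fall of ADM. Of the NDRG relatives, NDRG3 rose by 0.58 (SE 0.04), with the other pair of its probe sets at 0.49 and 0.67. NDRG2 rose by 1.00 (SE 0.27), a call lost without DMSO replicate 2 and without teriflunomide replicate 1 or 3, and 0.49 with values under log2 5 raised to 5. NDRG4 fell by 0.54 (SE 0.15), a call lost without DMSO replicate 2 or 3 and without teriflunomide replicate 2 or 3.

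The changes of 11 pairs of relatives were compared by exact permutation of the per-array difference. These pairs took every tested relative of a member that reached log2 5 on any array, and were set after the members' values were seen. The groups did not overlap for 7 of the 11. Among single genes that held for 67.0%, and no such share was worked out for pairs. PDK1 fell by 1.31 more than PDK3, VEGFA rose by 1.29 more than VEGFB and by 1.16 more than PGF. The rest were EPAS1 with HIF1A and with HIF3A, PDK1 with PDK2, and NDRG1 with NDRG4. The limits given above for PGF, HIF3A, PDK2, PDK3 and NDRG4 apply to their pairs. Each of these 7 had an exact permutation p of 0.1, the smallest that 3 arrays against 3 can give, and p = 0.157 adjusted over the 11.

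Receptors were dim or did not pass, apart from NRP2, RAMP1 and 1 probe set of NRP1. NRP2, a co-receptor of VEGF ligands and semaphorins, read 6.14, 6.37 and 6.22 with teriflunomide, against 3.89, 3.94 and 3.94 with DMSO. This rise of 2.32 became 1.25 with values under log2 5 raised to 5. The other tested NRP2 probe sets were dimmer, and 1 rose by 0.38 while 1 stood at 0.72 and did not pass. NRP1, its relative, stood at -0.27 on the brighter probe set, which did not pass, and rose by 0.97 on the other. It passed as a fall under 6 alternatives, among them without teriflunomide replicate 2 (-0.35), and as a rise of 0.35 with the mean of its probe sets, so its direction is not settled. The VEGF receptor genes FLT1 and FLT4 stood at 0.22 and -0.21 and did not pass, and KDR lay near the lowest value at 2.20 with teriflunomide and 2.21 with DMSO. RAMP1, which encodes a receptor activity-modifying protein, fell by 0.99 (SE 0.26). That call was lost when any of 4 arrays was left out, teriflunomide replicates 1 to 3 and DMSO replicate 3. CALCRL, the adrenomedullin receptor itself, lay at the lowest value in both groups. Of the carbonic anhydrases related to CA9, CA11 rose by 0.65, while CA2, CA4 and CA10 lay near the lowest value. CA14 was dim, at 2.80 with teriflunomide and 2.72 with DMSO, and its change of 0.09 did not pass.

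Arrays of 1 group correlated at Pearson's r of at least 0.998 over all probe sets, those of different groups at 0.989 to 0.990, and no 2 held identical values. Arrays give no read depth, and 3 arrays a group limit the precision. Of the neuroblastoma markers, 8 were tested, 3 rose, 2 fell and 3 did not pass. The share called was 62.5%, close to the 58.6% of all genes. PHOX2A rose by 0.76, GATA3 by 0.35 and ISL1 by 0.22. CHGA, which encodes the granule protein chromogranin A, averaged 11.27 with teriflunomide and 12.73 with DMSO, and its fall of 1.46 was the 1 change of at least 2-fold in the list, while MYCN fell as given above. CHGB (0.30), HAND2 (-0.04) and the dim DBH (-0.94) did not pass, and TH and STMN2 lay near the lowest value. HAND2 read 6.92 on every teriflunomide array and 6.92, 7.03 and 6.92 with DMSO. With that exact repeat, whether HAND2 was above its background signal is not known. Of 11 markers of blood, endothelial, epithelial and stromal cells with a probe set, 8 lay within 0.05 of the lowest value on all 6 arrays, PTPRC, PECAM1, CDH5 and CDH1 among them. The summed level of all 11, on a log2 scale, was 7.11 to 7.32 with teriflunomide and 7.49 to 7.64 with DMSO. Of the 3 above the lowest value, MUC1, the brightest, fell by 0.64, and PDGFRB and EPCAM did not pass. The log2 signal of the ACTB 3′ probe set less that of its 5′ probe set, which grows as RNA shortens, was 1.62 ± 0.07 with teriflunomide and 1.36 ± 0.03 with DMSO (SD, n = 3 each, exact permutation p = 0.1). The same difference for GAPDH was 0.063 ± 0.021 with teriflunomide and 0.049 ± 0.006 with DMSO (SD, n = 3 each, exact permutation p = 0.4), and the groups overlapped. The part of the ACTB difference in the results above was not tested. Since each array measured the RNA of whole wells, fewer cells carrying a transcript and less of it per cell cannot be told apart.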

How the data were processed

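IMR32 cells given teriflunomide or DMSO were profiled on 6 Affymetrix arrays. The deposited table gives each probe set a log2 intensity on each array. GCRMA produced these values, per the submitters' processing notes, its version and settings not given in the sources used here. GCRMA models background from probe sequence and brings arrays to a common distribution, so dim values and shifts common to all genes are limited. Of 54675 probe sets, 41097 had 1 symbol, 1801 several and 11777 none. Only those of 1 symbol entered gene tests. Probe sets entered the test if 3 or more of the 6 arrays put them no lower than the array median, and the brightest stood for its gene, giving 11998 genes. Groups were compared with limma 3.58.1 (R 4.3.3; Python 3.11.15 for reading and drawing), lmFit and eBayes without covariates, two-sided, with Benjamini-Hochberg adjustment over all genes or all 27290 probe sets.

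The fit was tested on simulated data. Alternatives were other filters, a floor at log2 5, centring, quantile normalization, poly-A spike centring, other choices of probe set, trended robust eBayes, a replicate block and leaving out each array. The members and lists were chosen with earlier results of these data known. Named genes were all members, the 4 largest rises and falls past the threshold in each pathway list, and tested relatives or receptors. VHL, HIF3A, PHOX2A and genes below the filter were named after their values were seen.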

Additional observations from a re-analysis of the deposited data

How the results depend on the processing

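Of 140 alternative values of the 9 tested members, 139 kept the direction and side of the threshold of the value reported and the exception was EGLN3 without teriflunomide replicate 2. For 42 other named genes 608 of 656 did so, 27 lost a call, 9 gained one and 12 changed sign. SIAH1 changed sign to -0.23 with a plain suffix preferred, where a dim probe set was taken. With probe sets averaged per gene NRP1 changed sign to 0.35 and PDK3 to 0.21, each called as a rise, and PGF to 0.073, not called. Sign changes near 0, none called, were PDK3 at 0.0018 and ADM2 at 0.0078 with median centring, PDK3 at 0.0031 and ADM2 at 0.014 with quantile normalization, and, over the fits that leave out 1 array, PDK3 at -0.028 to 0.021, PGF at -0.167 to 0.022 and CA14 at -0.025 to 0.155. With the filter at the 75th percentile, fewer genes were tested, and 1 member gene and 3 member probe sets were called higher, 5 machinery genes and 5 other HIF targets lower, and 4 paralogues and partners higher. With poly-A spike centring 5 machinery genes were lower and with probe sets averaged per gene 6, against 3. With no filter 1 of the paralogues and partners was lower, and without DMSO replicate 3 or teriflunomide replicate 3 also 1, against 3. At the 75th percentile EPAS1 and NDRG1 lay below the filter and were not tested, and VEGFA was called higher as before. The cause of the other shifts was not tested. Leaving out each array gave 1 to 3 of the paralogues and partners lower. Same-numbered arrays of the groups had correlated deviations of 0.09, 0.13 and -0.04, so the numbers were not taken as pairs. With a replicate block, 3 member genes rose and 3 fell as before, and 3359 genes were higher and 3282 lower, against 3560 and 3471. The median change of all genes moved at most to -0.08, under poly-A spike centring, where 2686 genes were higher and 3881 lower.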
